A study of Homo sapiens with 18 samples.

Results

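Interferon-inducible genes include several large families of related proteins, and beside these a mixed set of effectors and regulators that belong to none of them. The 33 genes described here are that mixed set: ISG20, IFI35, XAF1, DDX60, DDX60L, CMPK2, EPSTI1, BST2, LY6E, SP100, SP110, SP140, EIF2AK2, PLSCR1, LGALS3BP, LGALS9, OTOF, HELZ2, ZNFX1, PNPT1, RTP4, NMI, IFI30, TDRD7, LAP3, TOR1B, PHF11, CNP, NUB1, N4BP1, SHISA5, TYMP and ADAR. They were taken by gene name, as interferon-inducible genes outside the OAS, IFIT, IFITM, MX, GBP, PARP, TRIM, ISG15-system and IFI44 families, and all 33 were found among the 19784 rows of the expression tables. The 18 RNA libraries came from THP-1, an established monocytic leukaemia line with the MLL-AF9 fusion, in 2 experiments on PHF8, a histone demethylase. The first experiment held 4 libraries each of cells with the genotype label PHF8, of cells labelled F279S, and of wt cells, with no treatment or time named. F279S is known as a catalytically inactive form of PHF8. The second experiment held 2 libraries each of the lines ERDD (genotype label PHF8DD), ERPHF8 (genotype label PHF8) and ERAA (genotype label PHF8AA), harvested on day 3. The labels give 4-OHT (4-hydroxytamoxifen, 100 nM in the protocol), used to induce PHF8DD and PHF8AA, for the ERDD and ERAA libraries and name no treatment for ERPHF8. All comparisons with ERPHF8 are therefore also comparisons across that label, and the form of PHF8 and the treatment cannot be told apart in them. The labels do not say which residues the letters DD and AA stand for, or whether a line was a clone or a pool.

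Type I interferons are secreted proteins that bind a receptor on the cell surface, whose kinases JAK1 and TYK2 activate transcription factors. A complex that holds STAT2 and IRF9 enters the nucleus and binds interferon-stimulated response elements, short repeats of GAAA, in the promoters of its target genes. The products of these genes sense or degrade foreign RNA, stop translation, hold back virus at membranes, act in nuclear bodies and adjust the signalling itself.

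Levels are given in CPM, reads per 1e6 reads in the library, counted over the whole gene from start to end without regard to strand. Library totals ranged from 18.2 to 24.3 M reads (1 M is 1e6) in libraries 1 and 2 of the first experiment, from 20.8 to 51.5 M in its libraries 3 and 4, and from 40.6 to 41.3 M in the ER lines. A count of 3 reads was worth between 0.0582 and 0.1645 CPM. PHF8 itself, the check on the labels, had 2020 ± 89.6 CPM in PHF8 cells, 5381 ± 320 CPM in F279S cells and 50.6 ± 3.99 CPM in wt cells (mean ± SD, n = 4 each). In the ER lines it had 1109 ± 14.8 CPM in ERDD, 1906 ± 8.51 CPM in ERPHF8 and 2150 ± 219 CPM in ERAA (SD, n = 2 each). ESR1, the second check, had 125 ± 1.33, 230 ± 0.614 and 261 ± 19.9 CPM in the same order. Both genes were thus lower in ERDD than in ERAA (log2 fold change -0.95 and -1.05, limma adjusted p = 9.2e-06 and 1.9e-06). The part of these levels in the results of the ER lines was not tested. Of 10 monocytic marker genes, 10 had at least 1 CPM in every library, and of 12 markers of other cell types 1 did, while 7 were below 1 CPM in all. In each group of the first experiment, libraries 1 and 2 stood apart from libraries 3 and 4: a chi-square per gene of recovered reads was between 1.95 and 11.8 within these library pairs and between 26.6 and 75.0 across them. The labels name no batch, and all 3 groups hold both pairs. Between the 2 libraries of an ER line, the chi-square per gene was 1.86 for ERDD, 3.28 for ERPHF8 and 15.4 for ERAA. The tests below took 1 spread per gene over the 3 ER lines. Nothing states that replicate libraries came from separate cultures, so p-values measure only the spread between these libraries, which may be technical. In bulk RNA, a change in the share of cells that express a gene and a change in RNA per cell cannot be told apart. For 11 members the span overlaps that of another listed gene, so that some reads count for both and their values are uncertain. IFI30 lies wholly inside AC007192.4, SP110 and SP140 overlap each other and AC009950.1, and more than 10% of the spans of LGALS9, DDX60L, ZNFX1, CNP and TYMP overlap another gene. LGALS9 also has near-identical copies among which reads could be split, and DDX60 and DDX60L are paralogs. The overlaps of CMPK2 with RSAD2, of EIF2AK2 with GPATCH11 and of NUB1 with WDR86 cover at most 6.9% of the member.

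In the ER lines the members were higher in ERDD than in ERAA nearly throughout, and for most of them ERPHF8 lay between. Of 33 members tested, 32 rose and 0 fell in ERDD against ERAA, where 34.8% of all genes rose and 33.3% fell (limma on log2(CPM + 0.5), adjusted p below 0.05 over 13831 genes). The median log2 fold change was 1.47 over the members and 0.00 over all genes. A fold of at least 2 was reached by 20 members, against 6.11% of all genes in either direction. N4BP1 alone did not pass, at 0.14 ± 0.08 (log2 fold change ± SE, limma adjusted p = 0.14). In ERPHF8 against ERAA, 24 members rose, 2 fell and 7 did not pass, where 29.7% of all genes rose and 24.1% fell. Their median was 0.55, against 0.04 over all genes. In ERDD against ERPHF8, 30 members rose, 1 fell and 2 did not pass, where 24.8% of all genes rose and 28% fell. The median there was 0.94, against -0.02 over all genes. Each pair of these comparisons shares the libraries of 1 line. For 27 of the 33 members, both ERDD libraries lay above both ERPHF8 libraries and these above both ERAA libraries, an order that 18.9% of all genes followed. The members outside that order were NUB1, TDRD7, TOR1B, N4BP1, IFI30 and TYMP.

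**Figure D1:**
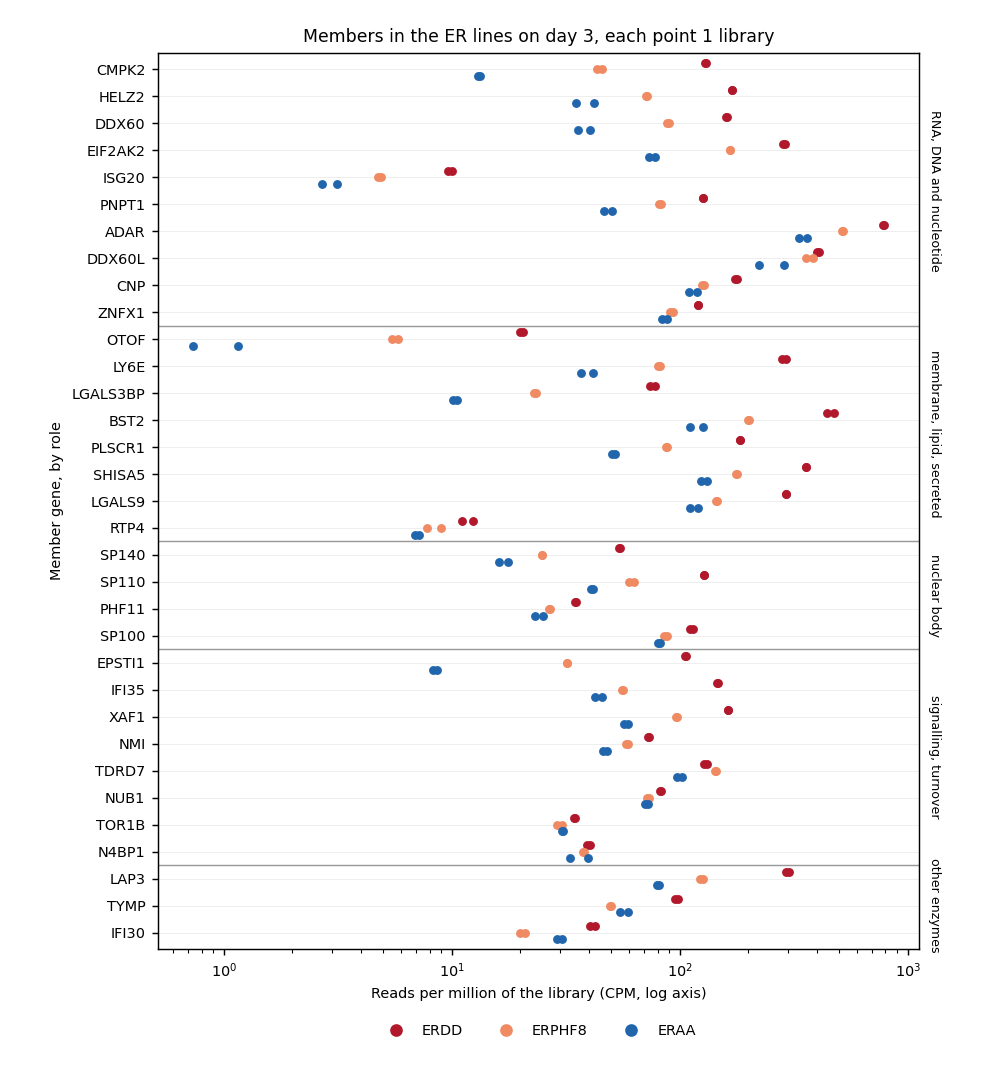
Level of each member in the 6 ER-line libraries, in CPM on a log axis, with members grouped by role and each point 1 library. The points of ERDD lie to the right of ERPHF8 and ERAA for 27 members in the order ERDD, ERPHF8, ERAA, and the lines overlap or lie close for N4BP1, TOR1B and NUB1.

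The promoters of the members were searched for the core of the interferon-stimulated response element, GAAANNGAAA, on both strands. The window ran from 250 bases before to 50 bases after the gene start (RefSeq, GRCh38.p14). A promoter was listed for 29 of the 33 members, but not for LY6E, TOR1B, PHF11 or ZNFX1. Some genes had more than 1 window, and a gene counted if any of its windows held the motif. The motif was in 13 of the 29 (44.8%), and in 4.38% of all 27305 genes with a promoter. The gamma-activated site TTCNNNGAA was in 8 of the 29 (27.6%) and in 9.38% of all genes. The members were chosen as interferon-inducible genes, so a higher share of these motifs than among all genes says nothing about the changes seen here. A match is a string of letters and does not show that a factor binds there. The following windows, 5′ to 3′ on the strand of the gene, are shown for members that changed by large and by small amounts, with capitals marking the motif.
EPSTI1 (chr13:42992252-42992321, minus strand): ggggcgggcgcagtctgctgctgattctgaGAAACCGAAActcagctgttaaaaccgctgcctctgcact
LGALS3BP (chr17:78979942-78980011, minus strand): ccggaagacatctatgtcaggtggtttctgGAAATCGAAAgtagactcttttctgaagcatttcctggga
DDX60 (chr4:168318766-168318870, minus strand): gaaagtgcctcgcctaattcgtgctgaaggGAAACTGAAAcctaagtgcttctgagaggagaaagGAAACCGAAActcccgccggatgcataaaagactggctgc
BST2 (chr19:17405715-17405790, minus strand): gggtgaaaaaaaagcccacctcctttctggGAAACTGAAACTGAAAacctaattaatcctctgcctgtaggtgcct
EIF2AK2 (chr2:37156947-37157016, minus strand): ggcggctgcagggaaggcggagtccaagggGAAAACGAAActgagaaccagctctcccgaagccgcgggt
PLSCR1 (chr3:146544647-146544716, minus strand): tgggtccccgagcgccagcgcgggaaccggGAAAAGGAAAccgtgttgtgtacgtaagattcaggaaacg
ISG20 (chr15:88638917-88638986, plus strand): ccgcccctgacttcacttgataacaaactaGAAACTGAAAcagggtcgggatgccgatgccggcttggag
RTP4 (chr3:187368313-187368406, plus strand): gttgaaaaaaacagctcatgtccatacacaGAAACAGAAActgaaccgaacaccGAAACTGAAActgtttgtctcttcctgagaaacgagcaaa
The first match began 50 bases before the start site in EPSTI1, 58 in LGALS3BP, 88 in DDX60, 80 in DDX60L, 130 in BST2, 6 in EIF2AK2, 79 in PLSCR1, 69 in ISG20 and 42 in RTP4. DDX60, DDX60L and RTP4 held 2 separate matches, and BST2 held 2 that overlap. The other members with a match were LGALS9, NMI, LAP3 and SHISA5. At the RefSeq starts used here, SP110 and SP140 start 100 bases apart on opposite strands and share 199 bases of their windows (chr2:230225587-230225785). Such a start can lie inside the span over which reads were counted. For SP140 it is at 230225736, while the span starts at 230203110. In ERDD against ERAA, members with the motif had a median log2 fold change of 1.83 (0.63 to 3.57), and the 16 members without it had a median of 1.27 (0.14 to 3.86). The ranges overlap: OTOF and CMPK2, with no match in this window, had log2 fold changes of 3.86 and 3.25, and RTP4, with 2 matches, had 0.70.

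The 10 members that act on RNA, DNA or nucleotides all rose in ERDD against ERAA, where 34.8% of all genes rose. Their median log2 fold change was 1.49, with limma adjusted p of at most 5.6e-04. CMPK2, a mitochondrial nucleotide kinase at chr2:6840570-6866635, hg38, had 130.4 and 129.8 CPM in ERDD, 45.5 and 43.3 CPM in ERPHF8 and 13.3 and 13.1 CPM in ERAA. The 3 lines did not overlap, and the ERDD mean was 9.84 times the ERAA mean (log2 fold change 3.25 ± 0.05, limma adjusted p = 5.6e-09). HELZ2, a helicase and nuclear coactivator, had 169.8 and 170.0 CPM in ERDD, 71.6 and 72.1 CPM in ERPHF8 and 42.3 and 35.3 CPM in ERAA. Its log2 fold change was 2.12 ± 0.08 in ERDD against ERAA. DDX60, a helicase-like protein that promotes signalling by cytosolic RNA sensors (chr4:168216293-168318807, hg38), had 161 and 159.7 CPM in ERDD, 88.0 and 89.9 CPM in ERPHF8 and 40.6 and 35.7 CPM in ERAA. ERDD was 4.20 times ERAA in the means, and ERPHF8 was 2.33 times ERAA. EIF2AK2, the kinase that stops translation when it binds foreign RNA (chr2:37099210-37157065, hg38), had 291 and 284 CPM in ERDD, 167 and 166 CPM in ERPHF8 and 78.3 and 73.3 CPM in ERAA. Both steps passed the test, at 1.13 ± 0.04 for ERPHF8 against ERAA and 0.78 ± 0.04 for ERDD against ERPHF8.

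ISG20, an exonuclease that degrades RNA, had 10.0 and 9.67 CPM in ERDD, 4.77 and 4.88 CPM in ERPHF8 and 3.15 and 2.71 CPM in ERAA. Each step was called, with 1.60 ± 0.10 for ERDD against ERAA. PNPT1, an exoribonuclease of mitochondria, had 126 and 127 CPM in ERDD, 82.9 and 81.2 CPM in ERPHF8 and 50.4 and 46.5 CPM in ERAA. Here the log2 fold change was 1.38 ± 0.05, and the lines did not overlap. ADAR, which deaminates adenosine in RNA, had 781 and 790.1 CPM in ERDD, 514 and 521 CPM in ERPHF8 and 363 and 335 CPM in ERAA. Its ERDD mean was 2.25 times its ERAA mean (1.17 ± 0.05). DDX60L, the paralog of DDX60, differed between the 2 ERAA libraries more than the other members of this role and averaged 404 ± 4.05 CPM in ERDD, 372 ± 18.5 CPM in ERPHF8 and 256 ± 46.0 CPM in ERAA (SD, n = 2 each). Both ERDD and ERPHF8 were called higher than ERAA, while ERDD against ERPHF8 did not pass (0.12 ± 0.10, limma adjusted p = 0.34). CNP, a cyclic nucleotide phosphodiesterase abundant in myelin, averaged 176 ± 2.35 CPM in ERDD, 126 ± 1.53 CPM in ERPHF8 and 115 ± 7.22 CPM in ERAA. Its difference between ERPHF8 and ERAA was small (0.14 ± 0.05, limma adjusted p = 0.042), and the call was lost without ERPHF8 library 1, ERPHF8 library 2 or ERAA library 1 (0.08 to 0.16, limma adjusted p = 0.06 to 0.18). ZNFX1, a helicase-like sensor of foreign RNA, changed least of this role in ERDD against ERAA, at 120.2 and 120.1 CPM in ERDD, 90.9 and 93.3 CPM in ERPHF8 and 88.2 and 84.0 CPM in ERAA. It rose in ERDD against both other lines, and ERPHF8 against ERAA did not pass (0.10 ± 0.04, limma adjusted p = 0.094).

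The 8 membrane, lipid-binding and secreted proteins all rose in ERDD against ERAA as well, where 34.8% of all genes rose. Their median log2 fold change was 1.89, with limma adjusted p of at most 2.7e-04. OTOF, otoferlin, a calcium sensor of membrane fusion known from inner hair cells (chr2:26457203-26558698, hg38), had 20.0 and 20.6 CPM in ERDD, 5.49 and 5.84 CPM in ERPHF8 and 1.16 and 0.731 CPM in ERAA. The groups were far apart, with an ERDD mean 21.5 times the ERAA mean (log2 fold change 3.86 ± 0.14), although the higher ERAA library held only 47 reads. LY6E, a lipid-anchored surface protein that blocks fusion of coronaviruses, had 280.4 and 293 CPM in ERDD, 82.2 and 80.4 CPM in ERPHF8 and 37.0 and 41.8 CPM in ERAA. ERPHF8 was 2.06 times ERAA and ERDD 7.27 times ERAA in the means. LGALS3BP, a secreted glycoprotein that binds galectins (chr17:78971238-78980109, hg38), had 74.3 and 78.1 CPM in ERDD, 23.0 and 23.4 CPM in ERPHF8 and 10.5 and 10.2 CPM in ERAA. Each step was called, at 1.12 ± 0.06 for ERPHF8 against ERAA and 1.70 ± 0.06 for ERDD against ERPHF8.

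BST2, tetherin, which holds budding virus at the cell surface (chr19:17402939-17405648, hg38), had 475 and 443 CPM in ERDD, 201 and 199 CPM in ERPHF8 and 111 and 127 CPM in ERAA. No ERPHF8 library reached the ERDD libraries, and the ERDD mean was 3.86 times the ERAA mean. PLSCR1, a lipid scramblase that blocks virus entry, had 185 and 184 CPM in ERDD, 88.4 and 87.4 CPM in ERPHF8 and 52.2 and 50.6 CPM in ERAA. The 2 libraries of each line lay close together, and ERDD against ERAA was 1.83 ± 0.04. SHISA5, a protein of the endoplasmic reticulum linked to p53-induced cell death, had 359 and 359 CPM in ERDD, 179 and 176 CPM in ERPHF8 and 124 and 132 CPM in ERAA. LGALS9, a galectin that modulates immune cells, had 294 and 294 CPM in ERDD, 144 and 146 CPM in ERPHF8 and 112 and 121 CPM in ERAA. The lines did not overlap for either gene, and ERDD against ERPHF8 and ERPHF8 against ERAA were at 1.01 ± 0.04 and 0.47 ± 0.04 for SHISA5 and at 1.02 ± 0.05 and 0.32 ± 0.05 for LGALS9. RTP4, a chaperone that brings receptors to the cell surface, changed least of this role, at 12.4 and 11.1 CPM in ERDD, 8.98 and 7.82 CPM in ERPHF8 and 6.93 and 7.17 CPM in ERAA. It was called in ERDD against ERAA (0.70 ± 0.09) and not in ERPHF8 against ERAA (0.23 ± 0.09, limma adjusted p = 0.062).

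Of the 4 nuclear body and chromatin proteins, 4 rose in ERDD against ERAA, where 34.8% of all genes rose. Their median log2 fold change was 1.07, with limma adjusted p of at most 1.1e-04. SP140, a reader of chromatin marks in immune cells, had 54.9 and 54.3 CPM in ERDD, 24.8 and 24.8 CPM in ERPHF8 and 16.2 and 17.7 CPM in ERAA. SP110, its neighbour on chromosome 2, had 128 and 128 CPM in ERDD, 60.2 and 62.8 CPM in ERPHF8 and 41.7 and 40.8 CPM in ERAA. Their log2 fold changes, from spans that share reads, were 1.66 ± 0.06 for SP140 and 1.62 ± 0.04 for SP110. SP100, a resident of promyelocytic leukaemia nuclear bodies that restricts DNA viruses, changed least of these, at 112 and 115 CPM in ERDD, 85.2 and 88.3 CPM in ERPHF8 and 82.1 and 80.7 CPM in ERAA. Its rise in ERDD (0.47 ± 0.04) was called, and ERPHF8 against ERAA was not (0.09 ± 0.04, limma adjusted p = 0.1). PHF11, a PHD finger protein, averaged 34.9 ± 0.247 CPM in ERDD, 27.0 ± 0.192 CPM in ERPHF8 and 24.2 ± 1.47 CPM in ERAA, and it was called in ERDD against both other lines, with ERPHF8 against ERAA at 0.15 ± 0.06 (limma adjusted p = 0.056).

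Of the 8 regulators of signalling, protein turnover and cell death, 7 rose in ERDD against ERAA, where 34.8% of all genes rose. The median was 0.50 over the 8, and limma adjusted p was at most 0.016 for the 7. Of these, 3 changed by more than 1 on the log2 scale. EPSTI1, a protein first described in breast cancer cells grown with stroma (chr13:42886388-42992271, hg38), had 105 and 106 CPM in ERDD, 32.2 and 32.0 CPM in ERPHF8 and 8.60 and 8.29 CPM in ERAA. The lines were far apart, with an ERDD mean 12.5 times and an ERPHF8 mean 3.80 times the ERAA mean. IFI35, a binding partner of NMI in inflammatory signalling, had 147 and 145 CPM in ERDD, 56.0 and 56.7 CPM in ERPHF8 and 42.7 and 45.8 CPM in ERAA. Most of its difference lay between ERDD and ERPHF8, at 1.37 ± 0.05, with 0.35 ± 0.05 for ERPHF8 against ERAA. XAF1, which counters the apoptosis inhibitor XIAP, had 163 and 163 CPM in ERDD, 96.0 and 97.5 CPM in ERPHF8 and 59.6 and 57.1 CPM in ERAA. Both steps were called, at 0.75 ± 0.04 for ERDD against ERPHF8 and 0.72 ± 0.04 for ERPHF8 against ERAA.

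NMI averaged 73.1 ± 0.618 CPM in ERDD, 58.9 ± 1.06 CPM in ERPHF8 and 47.2 ± 1.28 CPM in ERAA, with 0.63 ± 0.04 for ERDD against ERAA. TDRD7, a Tudor domain protein of RNA granules, was the member that fell in ERDD against ERPHF8 (-0.14 ± 0.04, limma adjusted p = 0.022). It averaged 129.8 ± 2.15 CPM in ERDD, 143 ± 1.40 CPM in ERPHF8 and 99.8 ± 3.18 CPM in ERAA. That call was lost without any 1 of the 4 libraries compared (-0.13 to -0.16, limma adjusted p = 0.091 to 0.16). NUB1, which targets NEDD8 for degradation, and TOR1B, a torsin ATPase of the endoplasmic reticulum, rose by little in ERDD against ERAA (0.21 ± 0.04 for NUB1 and 0.17 ± 0.05 for TOR1B, limma adjusted p = 0.0024 and 0.016). The TOR1B call was lost without ERDD library 1 or 2 (0.18 and 0.17, limma adjusted p = 0.079 and 0.098). In ERDD against ERPHF8, TOR1B and NUB1 were lost without ERDD library 1, ERDD library 2 or ERPHF8 library 2 (0.17 to 0.23, limma adjusted p = 0.054 to 0.077). N4BP1, an inhibitor of inflammatory gene expression that cleaves RNA, had 40.6 and 39.3 CPM in ERDD, 37.9 and 38.1 CPM in ERPHF8 and 39.4 and 33.1 CPM in ERAA. ERAA library 1 lay among the ERDD libraries, and without it N4BP1 was called, at 0.27 (limma adjusted p = 6.6e-04).

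The 3 remaining enzymes rose in ERDD against both other lines, where 34.8% of all genes rose against ERAA and 24.8% against ERPHF8. Only LAP3 rose in ERPHF8 against ERAA, where 29.7% of all genes rose. LAP3, an aminopeptidase that trims peptides, had 292 and 302 CPM in ERDD, 127 and 123 CPM in ERPHF8 and 79.7 and 81.5 CPM in ERAA. The ERDD mean was 3.69 times the ERAA mean. IFI30, a lysosomal thiol reductase of antigen processing, had 40.4 and 42.4 CPM in ERDD, 20.0 and 21.0 CPM in ERPHF8 and 29.1 and 30.5 CPM in ERAA. Both ERPHF8 libraries lay below both ERAA libraries, and the fall was called (-0.53 ± 0.06, limma adjusted p = 2.2e-04), with the rise in ERDD against ERAA at 0.47 ± 0.06. TYMP, thymidine phosphorylase, averaged 96.5 ± 2.08 CPM in ERDD, 49.9 ± 0.495 CPM in ERPHF8 and 57.2 ± 3.06 CPM in ERAA. Its fall in ERPHF8 against ERAA (-0.19 ± 0.05, limma adjusted p = 0.013) was lost without ERPHF8 library 1 or 2 (-0.20 and -0.18, limma adjusted p = 0.059 and 0.086). The summed level of the 10 monocytic markers was also lowest in ERPHF8, at 1427 to 1432 CPM, against 1756 to 1783 CPM in ERDD and 1751 to 1805 CPM in ERAA. Markers with high levels weigh most in this sum, so a lower sum need not mean that every marker was lower. The part of the sum in these results was not tested.

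In the first experiment the members did not move as a body when PHF8 cells were set against wt cells. Of 32 members tested, 10 rose, 3 fell and 19 did not pass, where 12.7% of all genes rose and 8.28% fell (limma, adjusted p below 0.05 over 13683 genes). The median log2 fold change was 0.03 over the members and 0.01 over all genes. When each library pair was averaged to 1 value, 3 of 32 members were called, DDX60, PLSCR1 and LGALS3BP, beside 1775 of 13683 genes. Without PHF8 library 1 there were 8 members, beside 2215 of 13683 genes. LGALS3BP had 9.48, 9.99, 6.02 and 5.53 CPM in PHF8 cells, 2.73, 2.85, 1.95 and 2.12 CPM in F279S cells and 2.10, 1.96, 2.04 and 1.64 CPM in wt cells. All PHF8 libraries lay above all others, and the PHF8 mean was 4.01 times the wt mean (log2 fold change 1.72 ± 0.19, limma adjusted p = 7.3e-05). EPSTI1 had 4.41, 3.95, 4.23 and 4.46 CPM in PHF8 cells, 4.46, 5.59, 1.89 and 1.46 CPM in F279S cells and 1.85, 2.06, 1.63 and 1.30 CPM in wt cells. The PHF8 libraries lay above all wt libraries, while F279S libraries 1 and 2 were at or above the PHF8 level and F279S libraries 3 and 4 were at the wt level. Its log2 fold change in PHF8 against wt was 1.12 ± 0.31 (limma adjusted p = 0.022), a call lost without PHF8 library 1, PHF8 library 4 or wt library 4 (1.02 to 1.10, limma adjusted p = 0.054 to 0.06).

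Among the members that act on nucleic acids, 3 of 10 rose in PHF8 against wt and 0 fell, where 12.7% of all genes rose and 8.28% fell. DDX60 averaged 37.4 ± 1.80 CPM in PHF8 cells, 26.2 ± 1.67 CPM in F279S cells and 23.4 ± 3.77 CPM in wt cells (SD, n = 4 each), at 0.68 ± 0.10 for PHF8 against wt (limma adjusted p = 6e-04). EIF2AK2 was called at 0.37 ± 0.10, a call lost without PHF8 library 1 (0.33, limma adjusted p = 0.056). CMPK2 had 27.0, 25.9, 38.1 and 39.4 CPM in PHF8 cells, 20.7, 19.6, 18.0 and 17.7 CPM in F279S cells and 26.8, 26.7, 16.0 and 14.7 CPM in wt cells. The PHF8 and wt libraries overlapped, and the PHF8 call (0.65 ± 0.21, limma adjusted p = 0.045) was lost without PHF8 library 1, 3 or 4 or wt library 3 or 4 (0.50 to 0.73, limma adjusted p = 0.052 to 0.13). ISG20 was close to 1 CPM in all 3 groups, with 1.26 ± 0.272 CPM in PHF8 cells, 1.42 ± 0.241 CPM in F279S cells and 1.27 ± 0.379 CPM in wt cells.

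PLSCR1 averaged 48.9 ± 1.62 CPM in PHF8 cells, 36.4 ± 1.00 CPM in F279S cells and 34.1 ± 1.08 CPM in wt cells, with every PHF8 library above all 8 others and a log2 fold change of 0.51 ± 0.05 against wt (limma adjusted p = 4.9e-05). BST2 and SHISA5 of the same role fell, by small amounts (-0.20 ± 0.06 for BST2 and -0.25 ± 0.08 for SHISA5, limma adjusted p = 0.036 and 0.045). The BST2 call was lost without any 1 library but PHF8 library 4 (-0.17 to -0.22, limma adjusted p = 0.052 to 0.11), and the SHISA5 call without any but wt library 3 (-0.22 to -0.26, limma adjusted p = 0.072 to 0.11). SP140 and SP110 rose, at 0.58 ± 0.13 for SP140 and 0.45 ± 0.12 for SP110. NUB1 averaged 74.6 ± 0.997 CPM in PHF8 cells, 66.7 ± 3.32 CPM in F279S cells and 61.6 ± 1.25 CPM in wt cells and rose by 0.27 ± 0.05, a small change with little spread. IFI35 rose by 0.32 ± 0.09 and lost its call without PHF8 library 2 or 4 (0.30 and 0.31, limma adjusted p = 0.056 and 0.051). TYMP had 40.2, 43.0, 60.9 and 54.8 CPM in PHF8 cells, 119, 137, 83.1 and 79.6 CPM in F279S cells and 95.8, 94.0, 79.8 and 72.9 CPM in wt cells. All PHF8 libraries lay below all others, and the fall against wt was -0.79 ± 0.19 (limma adjusted p = 0.01). The summed monocytic markers were lower in PHF8 cells as well, at 1217 to 1521 CPM, against 1803 to 2021 CPM in F279S cells and 1830 to 2353 CPM in wt cells; their part in the results of PHF8 against wt and PHF8 against F279S was not tested. OTOF, below the level required for a test, had 0.203, 0.247, 0.338 and 0.253 CPM in PHF8 cells, 0.433, 0.384, 0.279 and 0.388 CPM in F279S cells and 0.300, 0.0515, 0.497 and 0.289 CPM in wt cells. These were at most 21 reads a library, and the 3 groups overlapped.

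**Figure D2:**
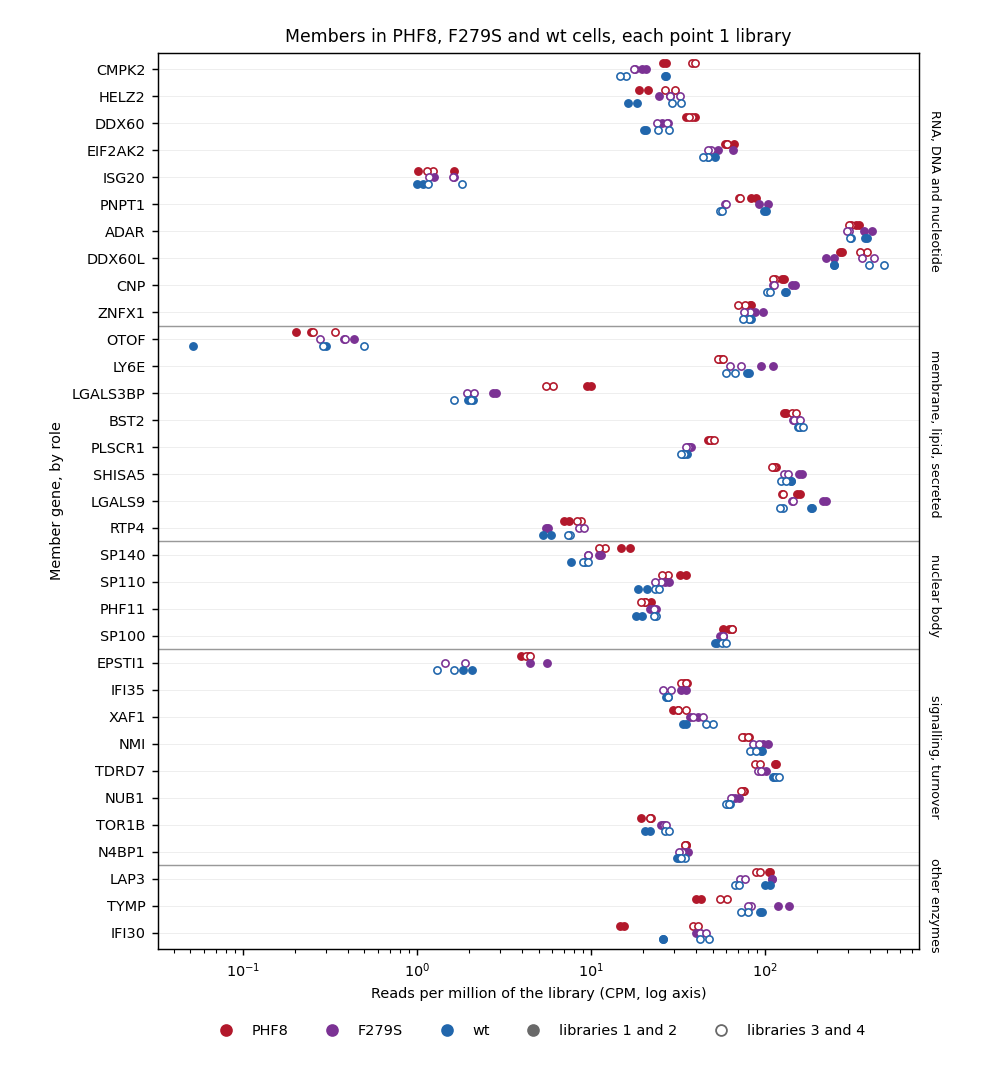
Level of each member in the 12 libraries of PHF8, F279S and wt cells, in CPM on a log axis, each point 1 library, with filled points for libraries 1 and 2 and open points for libraries 3 and 4. LGALS3BP and PLSCR1 are higher and TYMP is lower in all PHF8 libraries than in the other 8, and for CMPK2, PNPT1, LAP3 and IFI30 filled and open points of 1 group lie apart.

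Same-numbered libraries of the first experiment deviated together, as did libraries of the same library pair with another number, and the fit with the replicate number as a block was also read. With the block, 18 of 32 members were called in PHF8 against wt, against 41.4% of all genes in either direction. Of the 5 added, SP100 (0.17, limma adjusted p = 0.013) and LAP3 (0.22, limma adjusted p = 0.031) rose, and XAF1 (-0.35, limma adjusted p = 0.0079), LY6E (-0.36, limma adjusted p = 0.018) and NMI (-0.22, limma adjusted p = 0.0045) fell. XAF1 was also called without wt library 1 or 2 (-0.43 and -0.42), NMI without wt library 3 (-0.26) and SP100 without wt library 4 (0.21).

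The change in PHF8 against wt depended on the library pair for many members. With a term for the pair, the change in libraries 1 and 2 differed from that in libraries 3 and 4 for 14 of 32 members, where 30.5% of all genes differed. Of the 14, 6 had opposite signs in the pairs. Among these, CMPK2 (-0.02) and TDRD7 (0.03) were near 0 in libraries 1 and 2, and LGALS9 (0.01) in libraries 3 and 4. Within libraries 1 and 2 alone, 21 of 32 members were called in either direction, against 51.4% of all genes. Within libraries 3 and 4 alone it was 17 of 32, against 42.1% of all genes. CMPK2 had the widest gap, with a log2 change of -0.02 in libraries 1 and 2 and 1.31 in libraries 3 and 4 (limma adjusted p = 1.2e-05 for the difference). PNPT1 had 88.3, 82.8, 71.3 and 72.2 CPM in PHF8 cells, 104, 92.7, 58.8 and 59.4 CPM in F279S cells and 99.3, 101, 55.5 and 56.5 CPM in wt cells. Its wt libraries 1 and 2 lay above and its wt libraries 3 and 4 below all PHF8 libraries, which gave changes of -0.23 and 0.35 (limma adjusted p = 4.7e-04). TYMP had log2 changes of -1.18 in libraries 1 and 2 and -0.40 in libraries 3 and 4, and SP110 had 0.75 and 0.15 in the same order. LGALS3BP rose in both, by 2.02 and 1.43, and DDX60 by 0.86 and 0.50. For PLSCR1 (0.47 and 0.56), EPSTI1 (0.93 and 1.31) and NUB1 (0.27 and 0.28) no difference between the pairs was called, and each was called in PHF8 against wt within either pair alone.

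**Figure D3:**
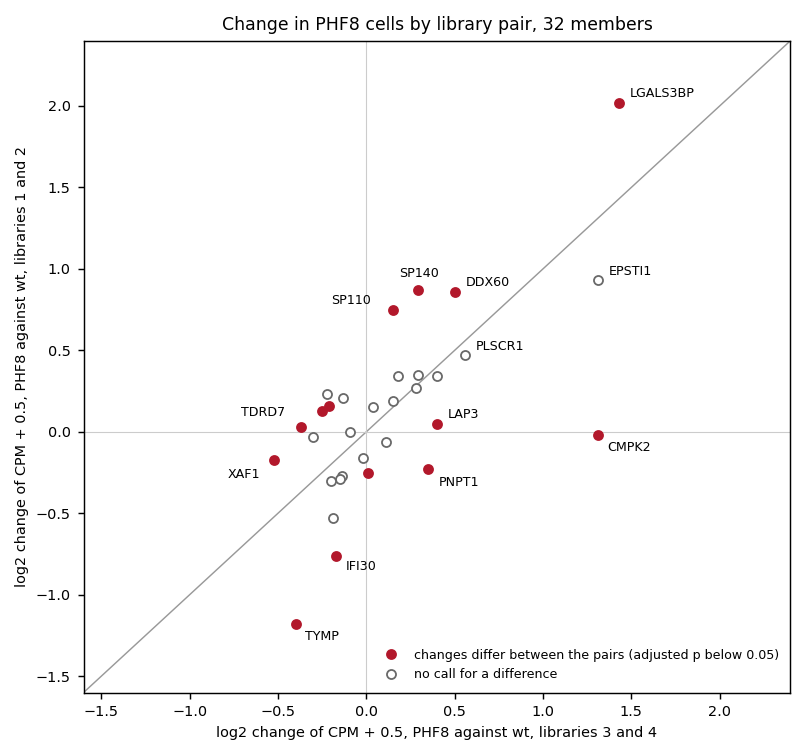
Log2 change of CPM + 0.5 in PHF8 against wt cells for 32 members, within libraries 3 and 4 (horizontal) and within libraries 1 and 2 (vertical), each point 1 member. The 14 filled points are members whose changes differed between the pairs; CMPK2 lies at 1.31 and -0.02, far from the line of equal change, and LGALS3BP is above 1 on both axes.

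In F279S against wt, 0 of 32 members rose and 0 fell with limma, where 0.0146% of all genes rose and 0% fell. At an unadjusted p below 0.05, limma gave 2 members of 32 and 871 of all genes, and voom on the recovered reads also called 0 members. The log2 fold changes lay between -0.26 and 0.65, with a median of 0.11 over the members and -0.01 over all genes, and 26 of 32 were above 0, as were 47.9% of all genes. With the replicate number as a block 0 of 32 were called, against 2.18% of all genes in either direction. Within libraries 1 and 2 alone, 16 of 32 members were called in either direction, 14 higher and 2 lower, against 14.2% of all genes. Within libraries 3 and 4 alone it was 0 of 32, against 0.0877% of all genes. EPSTI1 (1.16, limma adjusted p = 9.8e-06), IFI30 (0.66, limma adjusted p = 1.6e-06) and HELZ2 (0.60, limma adjusted p = 6.4e-05) had the largest values within libraries 1 and 2, and 0.14, -0.03 and -0.03 within libraries 3 and 4. CMPK2 (-0.40) and TDRD7 (-0.19) were the 2 lower ones. With the pair as a term, the difference between the pairs was called for CMPK2 and IFI30, 2 of 32 members, where 0.899% of all genes were called.

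In PHF8 against F279S the members did not move as a body either. Of 32 members tested, 9 were called: 5 rose and 4 fell, where 12.2% of all genes rose and 7.92% fell. The median log2 fold change was 0.04 over the members and 0.02 over all genes. With median-ratio scaling 4 rose and 5 fell, as NUB1 lost its call (0.14) and TOR1B gained one (-0.31). With library pairs averaged 4 of 32 were called, PLSCR1, LGALS3BP, SHISA5 and TYMP, beside 1594 of 13683 genes. Without PHF8 library 3 there were 5 members, beside 2136 of 13683 genes. This comparison and PHF8 against wt share the PHF8 libraries. LGALS3BP (1.47 ± 0.19), CMPK2 (0.74 ± 0.21), DDX60 (0.51 ± 0.10), PLSCR1 (0.42 ± 0.05) and NUB1 (0.16 ± 0.05) rose. TYMP (-1.05 ± 0.19), LY6E (-0.58 ± 0.15), SHISA5 (-0.36 ± 0.08) and NMI (-0.28 ± 0.07) fell. The sum of monocytic markers, in which high genes weigh most, was also lower in PHF8 cells (1217 to 1521 CPM, against 1803 to 2021 CPM in F279S cells). Its part in these falls was not tested. LY6E averaged 55.6 ± 1.69 CPM in PHF8 cells, 85.2 ± 21.4 CPM in F279S cells and 71.9 ± 9.98 CPM in wt cells, with the PHF8 libraries below all others. Its call was lost without PHF8 library 1 or 3 or F279S library 1 (-0.52 to -0.57, limma adjusted p = 0.052 to 0.059). The CMPK2 call was lost without PHF8 library 3 or 4 or F279S library 2, 3 or 4 (0.64 to 0.75, limma adjusted p = 0.052 to 0.078). NMI was lost without PHF8 library 2 or 3 or F279S library 1 or 2 (-0.24 to -0.27, limma adjusted p = 0.052 to 0.059), and NUB1 without any 1 library but F279S library 2 (0.14 to 0.17, limma adjusted p = 0.069 to 0.12). SP140 was called without PHF8 library 4 (0.45) and EIF2AK2 without F279S library 1 (0.30).

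With the replicate number as a block, 17 of 32 members were called in PHF8 against F279S, against 41.1% of all genes in either direction. The 8 added were SP140 (0.36, limma adjusted p = 0.033) and SP100 (0.13, limma adjusted p = 0.049), which rose, and IFI30 (-0.78), LGALS9 (-0.34), XAF1 (-0.32), TOR1B (-0.28), ZNFX1 (-0.14) and BST2 (-0.14), which fell (limma adjusted p = 0.0017 to 0.036). Within libraries 1 and 2, 23 of 32 members were called, against 53.8% of all genes, and within libraries 3 and 4, 17 of 32, against 35.2%. The change differed between the pairs for 12 of 32 members, where 21.8% of all genes differed. EPSTI1 had log2 changes of -0.23 in libraries 1 and 2 and 1.16 in libraries 3 and 4, and IFI30 had -1.42 and -0.14 in the same order.

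**Figure D4:**
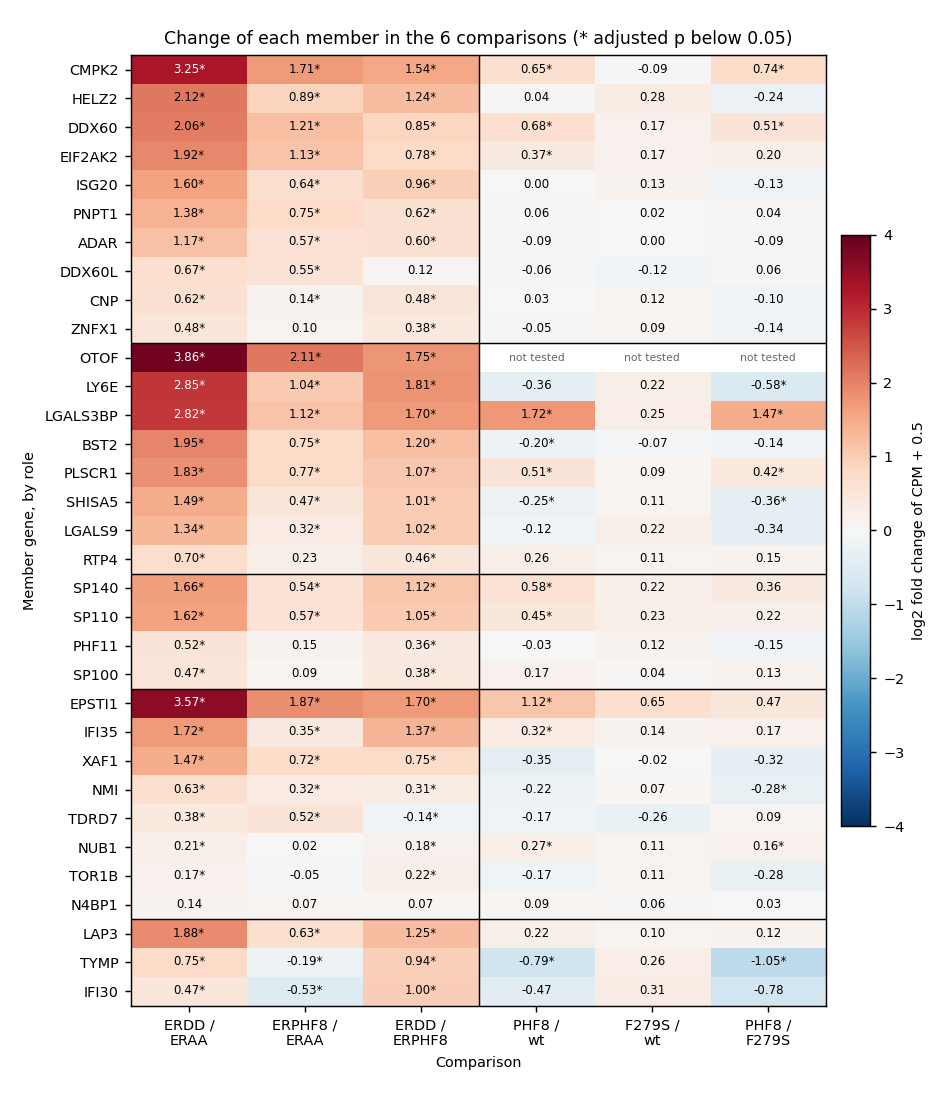
Log2 fold change of CPM + 0.5 for each member (rows, by role) in the 6 comparisons (columns), with an asterisk where the limma adjusted p was below 0.05. The 3 columns of the ER lines are mostly positive, with 32, 24 and 30 members higher and 0, 2 and 1 lower. Of all genes, 34.8%, 29.7% and 24.8% were higher and 33.3%, 24.1% and 28% lower. The 3 columns of the first experiment hold 10, 0 and 5 members higher and 3, 0 and 4 lower, and OTOF was not tested there. Of all genes, 12.7%, 0.0146% and 12.2% were higher there and 8.28%, 0% and 7.92% lower.

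The other genes of the interferon response were read from lists chosen with earlier results known. Of 30 genes of the large interferon-induced families, 30 rose in ERDD against ERAA (median log2 fold change 2.79), 29 rose in ERPHF8 against ERAA (1.31) and 30 in ERDD against ERPHF8 (1.49). Of all genes, 34.8%, 29.7% and 24.8% rose in the same order. In PHF8 against wt, 16 of 29 rose and 0 fell (0.61), where 12.7% of all genes rose and 8.28% fell. In F279S against wt 0 were called (0.29), where 0.0146% of all genes rose and 0% fell. In PHF8 against F279S 8 rose and 0 fell (0.18), where 12.2% of all genes rose and 7.92% fell. Of 15 signalling genes, 7 rose and 5 fell in ERDD against ERAA, where 34.8% of all genes rose and 33.3% fell, and their median was 0.16. Among those that rose were IRF7 (2.33), IRF9 (1.35), STAT2 (0.59), IRF2 (0.38), IRF3 (0.21) and USP18 (3.03), a protease that also restrains the receptor. The 5 that fell were the feedback inhibitor SOCS3 (-0.78), the receptor chain IFNAR1 (-0.25), the receptor kinases JAK1 (-0.24) and TYK2 (-0.13) and the phosphatase PTPN6 (-0.24). In ERPHF8 against ERAA 6 rose and 5 fell (median 0.03), where 29.7% of all genes rose and 24.1% fell. In ERDD against ERPHF8 8 rose and 0 fell (0.21), where 24.8% of all genes rose and 28% fell. In PHF8 against wt, 1 of the 15, IRF2, rose (0.35), and 3, SOCS3 (-1.09), PTPN6 (-0.34) and IRF3 (-0.34), fell. Of all genes, 12.7% rose and 8.28% fell there. In F279S against wt 0 of the 15 were called, where 0.0146% of all genes rose and 0% fell. In PHF8 against F279S the 3 called were lower, where 12.2% of all genes rose and 7.92% fell.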

How the data were processed

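For each of the 18 libraries of poly(A)-selected RNA the authors deposited RPKM values for 19784 genes, placed on hg38. The tools named were STAR 2.7.0c, SAMtools 1.9 and DESeq2, per the submitters' processing notes. How reads were counted, and with which annotation, is not given in the sources used here. Deposited RPKM values, multiplied by the span of the gene in kilobases (start to end, introns included), gave CPM, and all were whole multiples of 1 read within 0.001 reads, which gave the library totals and the reads behind each value. In 1626 pairs of nested genes, taken on either strand, the larger gene never held fewer reads (100% of 18655 tests). Counting error only is covered by the value of 3 reads given for the depth.

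A gene was tested if it reached 1 CPM in 4 or more libraries (first experiment, 13683 genes) or in 2 or more (ER lines, 13831 genes), with limma 3.58.1 (R 4.3.3, package data.table, version 1.17.8) on log2(CPM + 0.5), with a trended prior variance and the group as the only term. The groups of 1 experiment were fitted together and p-values were adjusted by Benjamini-Hochberg over all genes tested. An adjusted p below 0.05 was a call. Fold changes on this scale understate the change of low genes. Of the 33 members, 33 passed the filter in the ER lines and 32 in the first experiment (OTOF did not). Tables and figures were made with Python 3.11.15, numpy 2.4.6, pandas 2.3.3 and matplotlib 3.10.9. The fit was also run on simulated libraries of the first experiment, drawn independently and without a difference between library pairs. That simulation does not cover such a difference or the ER lines.

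The members and lists were chosen with earlier results of these data known. Values by library were given for members called in PHF8 against wt or ERDD against ERAA with an absolute log2 fold change of at least 0.8, for members below the filter, and for the member of each role nearest to no change in ERDD against ERAA. CMPK2, TYMP and PNPT1 in the first experiment were added after their values were seen. A signalling gene and a marker of another cell type were counted in their lists and are not reported by name here.

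Deviations from group means of same-numbered libraries correlated at 0.54 to 0.93 in the first experiment, so its numbers were taken to pair the libraries. Libraries of the same library pair with another number correlated at 0.25 to 0.87, and a library correlated best with its own number in 16 of 24 cases. In the ER lines they correlated at -0.41 to 0.10 and were not. Alternatives changed the pseudocount, the filter, the scaling, the test (voom on recovered reads), the groups fitted, the block and the libraries. The test of the group by library pair and the crossed numbers were chosen after seeing the data.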

Additional observations from a re-analysis of the deposited data

Results flagged for a closer look

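Among 99 sets of 4 libraries (33 members in 3 groups), 1 held a library far from the others. TOR1B in PHF8 cells had 19.5 CPM in library 2, against 21.9 to 22.1 CPM in libraries 1, 3 and 4, a gap of 0.913 of the whole range. Chance flags about 1 in 20 sets of 4 libraries that vary alike, a rate that does not hold where libraries 1 and 2 stand apart from libraries 3 and 4, as here.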

How the results depend on the processing

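In the ER lines the counts of called members stayed within 1.5 times under every alternative tried. With both libraries of each line kept, ERDD against ERAA gave 32 members, beside 8922 to 9652 of all genes. ERPHF8 against ERAA gave 25 to 27 (6303 to 7853 genes), and ERDD against ERPHF8 gave 31 to 32 (6558 to 9138 genes). In PHF8 against wt (13 members, and 2874 of 13683 genes), libraries 1 and 2 alone gave 21 (7029 genes) and averaging each library pair gave 3 (1775 genes). Leaving out 1 library gave 8 to 12 members (2215 to 2612 genes). In PHF8 against F279S (9 members, and 2750 of 13683 genes), libraries 1 and 2 gave 23 (7366 genes) and libraries 3 and 4 gave 17 (4821 genes). With the pair as a factor the count was 17 (5565 genes), and with pairs averaged 4 (1594 genes). Without 1 library the count was 5 to 8 (2070 to 2448 genes). In F279S against wt (0 members, and 2 of 13683 genes), libraries 1 and 2 alone gave 16 (1943 genes). Each other alternative gave 0 members, with at most 298 genes called.

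The replicate block gave 18 members in PHF8 against wt, 17 in PHF8 against F279S and 0 in F279S against wt, beside 41.4%, 41.1% and 2.18% of all genes. In the ER lines, which share only a number, the block gave 32, 25 and 31 members, beside 9068, 6900 and 6801 of 13831 genes. CNP lost its call in ERPHF8 against ERAA (adjusted p = 0.063 with limma), and all other calls of members there stood. With the numbers of ERPHF8 or ERAA crossed, ERPHF8 against ERAA gave 26 and 27 members, beside 7853 and 7784 genes.

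Of 3111 values of single members under an alternative, 91 lost and 98 gained a call while keeping their sign, and 83 changed sign. Of these, 79 had no call in either fit, 28 of them within 1 library pair, 47 without 1 library and 4 under another scaling or pseudocount. The 4 with a call in either fit came from libraries 1 and 2 alone: DDX60L (0.13), CMPK2 (-0.021) and PNPT1 (-0.23) in PHF8 against wt and PNPT1 in PHF8 against F279S (-0.20). The cause was not tested. With 2 libraries a group in the ER lines, leaving 1 out assumes that the lone library varies like the other groups. OTOF in the first experiment is limited by depth, at no more than 21 reads a library.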
